A study of Mus musculus with 82 samples.

Results

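The regions described here were stretches of open chromatin at annotated gene ends that every ATAC-seq peak list of the study contained and that stayed under 1500 bp in width. They were chosen by measured values. The 4 deposited peak lists were joined wherever intervals overlapped or touched, on chromosomes 1 to 19, X and Y, and a joined region was kept when each list overlapped it by at least 1 bp, when it was under 1500 bp wide, and when its centre lay within 1 kb of an end of a RefSeq gene. This gave 10099 regions among 55272 joined regions (18.3%) and among 21785 regions present in all 4 lists (46.4%, Wilson 95% interval 45.7 to 47.0). The other regions present in all 4 lists were 10662 of the same width class away from gene ends and 1024 of 1500 bp or more. The presence, width and position that the rule used are given below as descriptions.

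The study followed mouse embryonic fibroblasts, of the OG2 line that carries an Oct4 promoter reporter, during reprogramming toward pluripotent stem cells. Of its 82 samples, 8 were libraries of ATAC-seq, an assay in which a transposase inserts sequencing adapters into accessible DNA. The 4 groups of 2 libraries were OSKM with RNase H1(D209N) at day 7, OSKM with Flag at day 7, OSKM with RNase H1(D209N) at day 3 and OSKM with Flag at day 3, called D209N and Flag below. All groups carried retroviral Oct4, Sox2, Klf4 and c-Myc from Plat-E packaging cells. The RNase H1(D209N) coding sequence was delivered in a pMXs retroviral vector, on top of the endogenous enzyme, and the groups labelled Flag are read as its control. After infection, cells were kept in iCD1 medium or in stem cell medium with vitamin C, and which of these each library had is not given in the sources used here. The cultures were bulk populations, so the number of cells with an open site and the degree of opening per cell cannot be told apart. Each group had 1 peak list, which gives no spread between replicates, so differences between groups were not tested and no p-value is given. The lists held 40452 peaks in D209N at day 7, 42439 in Flag at day 7, 29189 in D209N at day 3 and 36375 in Flag at day 3. Read depth is unknown.

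RNA polymerase II starts transcription in short stretches of DNA that are kept free of nucleosomes, and in mammals most genes used by every cell start in CpG islands, where the CG dinucleotide escaped the loss seen elsewhere in the genome. Such promoters are bound by broadly expressed factors such as NRF1, ETS proteins, SP and KLF proteins, CREB, YY1 and NF-Y, and few have a TATA box. RNase H1 digests the RNA strand of RNA:DNA hybrids, which form R-loops near many CpG island promoters, and the D209N form binds hybrids with its catalytic site disabled.

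Promoter sequences are printed for 8 genes with such a region at the start, 1 for each of 8 short motifs out of 13 searched, to show the letters behind the shares reported further on. Each gene was the first in the order of the gene lists that held the motif, and these 8 motifs were picked after the shares had been seen, as 7 with a higher share at genes with a region and the TATA box, with a lower one. Sequences are RefSeq's for GRCm38.p6, run 5′ to 3′ on the gene's strand from 250 bases before to 50 bases after the annotated start, and capitals mark matches to the motif on either strand. A match is a description of letters and not evidence that a factor bound there. Rpl11, Rpl37a, Rpl13a, Rpl13, Rpl10, Rpl12 and Rpl36a encode proteins of the cytosolic ribosome, and Eif2ak3 encodes a kinase that phosphorylates the translation initiation factor eIF2 under endoplasmic reticulum stress. Positions below count from the annotated start, negative upstream. The ETS letters CCGGAAG of Rpl11 began at position 7 (chr4:136053344-136053643, minus strand). Rpl37a held the NRF1 letters GCGCATGCG on both strands, overlapping, from position 8 (chr1:72711010-72711309, plus strand). In Rpl13a the YY1 letters AAGATGGCG began at position 29 (chr7:45128696-45128995, minus strand). In Rpl13 the cAMP response element TGACGTCA, which reads the same on both strands, began at -24 (chr8:123102100-123102399, plus strand). Rpl10 held the GC box GGGCGG of SP and KLF proteins on the other strand at -226, where its last letters overlap a CCAAT sequence (chrX:74270566-74270865, plus strand). Rpl12 held the ZBTB33 letters CTCGCGAGA on both strands, overlapping, from -54 (chr2:32961462-32961761, plus strand). In Eif2ak3 the ZNF143 letters ACTACAATT began at -96 (chr6:70844265-70844564, plus strand). The TATA box letters TATAAA of Rpl36a began at position 4, downstream of the annotated start (chrX:134585404-134585703, plus strand).
Rpl11: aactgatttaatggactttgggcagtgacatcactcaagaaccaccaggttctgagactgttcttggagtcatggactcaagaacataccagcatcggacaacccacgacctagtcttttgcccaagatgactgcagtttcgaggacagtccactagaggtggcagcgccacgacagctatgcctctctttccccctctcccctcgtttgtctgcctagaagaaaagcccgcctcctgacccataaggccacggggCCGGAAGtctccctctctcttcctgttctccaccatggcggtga
Rpl37a: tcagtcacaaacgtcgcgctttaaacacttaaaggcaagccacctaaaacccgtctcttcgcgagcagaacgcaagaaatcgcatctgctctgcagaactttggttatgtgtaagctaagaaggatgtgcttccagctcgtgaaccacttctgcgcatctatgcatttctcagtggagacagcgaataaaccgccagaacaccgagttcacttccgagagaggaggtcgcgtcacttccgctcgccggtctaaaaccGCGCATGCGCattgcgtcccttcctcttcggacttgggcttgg
Rpl13a: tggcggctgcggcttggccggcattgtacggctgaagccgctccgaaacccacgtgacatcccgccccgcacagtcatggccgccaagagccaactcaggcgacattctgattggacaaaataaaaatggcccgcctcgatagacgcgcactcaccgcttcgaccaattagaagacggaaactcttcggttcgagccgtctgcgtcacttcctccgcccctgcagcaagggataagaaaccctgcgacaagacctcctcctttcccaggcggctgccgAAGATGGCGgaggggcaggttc
Rpl13: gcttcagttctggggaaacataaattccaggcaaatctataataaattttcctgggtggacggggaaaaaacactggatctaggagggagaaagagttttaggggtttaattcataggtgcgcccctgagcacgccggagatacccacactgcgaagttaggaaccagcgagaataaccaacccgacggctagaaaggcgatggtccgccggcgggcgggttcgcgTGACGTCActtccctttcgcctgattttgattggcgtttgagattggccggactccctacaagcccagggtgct
Rpl10: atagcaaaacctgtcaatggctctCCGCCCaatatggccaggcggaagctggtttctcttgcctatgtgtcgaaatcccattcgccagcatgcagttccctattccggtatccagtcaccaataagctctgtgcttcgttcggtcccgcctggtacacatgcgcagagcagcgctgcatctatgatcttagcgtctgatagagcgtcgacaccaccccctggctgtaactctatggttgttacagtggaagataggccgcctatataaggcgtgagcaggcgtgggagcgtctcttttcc
Rpl12: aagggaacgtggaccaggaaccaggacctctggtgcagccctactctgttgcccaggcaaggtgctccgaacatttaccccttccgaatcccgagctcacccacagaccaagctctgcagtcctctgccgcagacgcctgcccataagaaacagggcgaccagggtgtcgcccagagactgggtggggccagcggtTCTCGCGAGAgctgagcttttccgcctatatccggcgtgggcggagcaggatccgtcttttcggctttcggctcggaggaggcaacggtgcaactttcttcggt
Eif2ak3: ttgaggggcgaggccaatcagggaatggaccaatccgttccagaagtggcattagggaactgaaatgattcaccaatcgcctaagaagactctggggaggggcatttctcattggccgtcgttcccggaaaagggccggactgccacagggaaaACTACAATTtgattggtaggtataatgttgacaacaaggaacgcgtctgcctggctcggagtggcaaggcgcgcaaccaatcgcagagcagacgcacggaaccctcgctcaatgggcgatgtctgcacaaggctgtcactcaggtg
Rpl36a: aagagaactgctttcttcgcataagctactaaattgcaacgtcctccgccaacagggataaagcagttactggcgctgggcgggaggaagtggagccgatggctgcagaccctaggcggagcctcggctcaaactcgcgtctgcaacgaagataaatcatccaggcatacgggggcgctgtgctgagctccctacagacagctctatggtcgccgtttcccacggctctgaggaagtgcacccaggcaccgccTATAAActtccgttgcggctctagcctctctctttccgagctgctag

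In 7 of these 8 promoters all 300 bases lay inside the open region, and in Rpl13 152 of them did. The Rpl11 region had 726 bp under peaks in D209N and 753 bp in Flag at day 7, and 481 bp in D209N and 493 bp in Flag at day 3. The Rpl37a region had 829 bp in D209N and 836 bp in Flag at day 7, and 843 bp in D209N and 646 bp in Flag at day 3. The Rpl13a region had 782 bp in D209N and 687 bp in Flag at day 7, and 612 bp in D209N and 652 bp in Flag at day 3. Thus both lists of day 7 were wider than both lists of day 3 at Rpl11 and Rpl13a, while at Rpl37a the Flag list of day 3 alone was narrow.

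Most of the regions were single peaks in each list. Exactly 1 peak stood in the region in every list at 9820 of them (97.2%). Their peaks made up 25.1% of the D209N list and 24.0% of the Flag list at day 7, and 35.0% of the D209N list and 28.1% of the Flag list at day 3. The median joined width was 898 bp (quartiles 739 and 1080 bp). The bases under peaks, called width from here on, had medians of 816 bp in D209N at day 7 (quartiles 656.5 and 992), 811 bp in Flag at day 7 (652 and 988), 625 bp in D209N at day 3 (457 and 802) and 709 bp in Flag at day 3 (544 and 882). The joined regions of the same width class away from gene ends were narrower, with medians of 556 bp in D209N and 540 bp in Flag at day 7, and 457 bp in D209N and 518 bp in Flag at day 3. The median region at a gene end was covered over 93.9% of its length in D209N and 93.7% in Flag at day 7, against 72.4% in D209N and 81.4% in Flag at day 3.

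**Figure D1:**
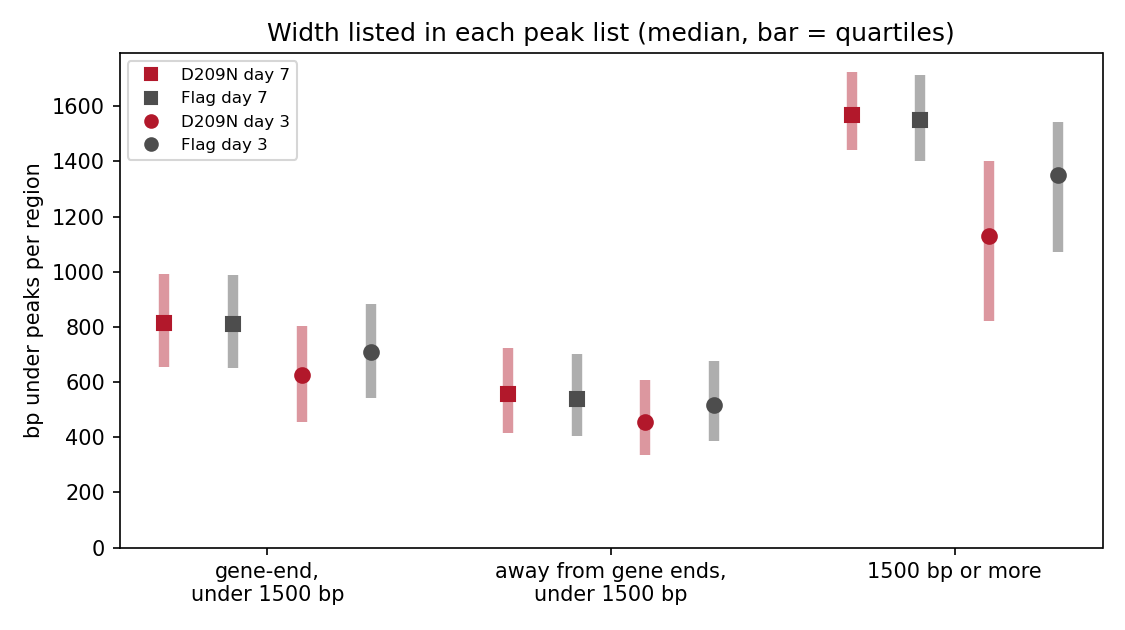
Bases under peaks per region (bp) in each of the 4 lists, for regions at gene ends under 1500 bp, regions of that width away from gene ends, and regions of 1500 bp or more, all present in every list. Points are medians over regions and bars run between the quartiles. At gene ends the median was 816 bp in D209N and 811 bp in Flag at day 7, and 625 bp in D209N and 709 bp in Flag at day 3.

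The width limit cut through a continuous range. Just inside it lay the regions at Plpp3, Hnrnpa1 and Mex3c, at 1498 bp each, and just outside those at Ywhag and Arf3, at 1500 bp each. The distance limit likewise separated Mettl5, at 1000 bp from its region's centre, and Klhl23, at 999 bp, from Adgrl3, at 1000.5 bp. The median distance between a region's centre and the nearest gene end was 148 bp, and 7111 regions (70.4%) were centred within 250 bp of one.

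At day 3 the regions were narrower in D209N than in Flag at 70.7% (interval 69.9 to 71.6), with a median ratio of D209N to Flag of 0.908, or 1.04 after division by the list medians. A width at least 1.5 times smaller in D209N was seen at 1439 regions (14.2%), against 15.5% of all regions present in every list. A width at least 1.5 times larger in D209N was seen at 236 regions (2.34%), against 3.49%. The share of narrow regions at gene ends was thus near that of the whole set. Intervals around these shares cover counting error only. The direction thus depended on the scale, where the division is of each width by its list's median over all regions present in every list. These list medians were 542 bp in D209N and 621 bp in Flag, so the division moves every ratio by the same factor. Before the division, the median ratio over all regions present in every list was 0.9064, so the turn was not particular to gene ends. The D209N list of day 3 was also the shortest of the 4, and the part of list length in the widths was not tested.

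At day 7 the median ratio of D209N to Flag was 1.004, or 0.9879 after the same division. Over all regions present in every list the ratio before the division was 1.007. D209N was at least 1.5 times narrower at 164 regions (1.62%), against 3.5% of all regions present in every list, and at least 1.5 times wider at 230 regions (2.28%), against 5.18%. Regions away from gene ends differed more often, with 5.5% narrower and 8.15% wider in D209N by this fold.

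Between the days, widths as deposited were larger at day 7 in both arms, a direction that turned in D209N after division by the list medians. In D209N the median ratio of day 7 to day 3 was 1.266, with 2845 regions (28.2%) at least 1.5 times wider at day 7, against 27.6% of all regions present in every list, and 87 (0.861%) narrower by that fold, against 3.55%. In Flag the ratio was 1.123, with 1369 regions (13.6%) wider, against 14.2%, and 185 (1.83%) narrower, against 6.68%. After division by the list medians the ratio was 0.9785 in D209N and 1.01 in Flag. The direction in D209N thus turned and the ratio in Flag was near 1. Before the division, the ratios over all regions present in every list were 1.232 in D209N and 1.095 in Flag. The day ratios of the arms were not tested against each other.

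At gene starts the width differences lay on both sides of the start. Among 5448 regions with 1 gene start and no other gene end, the outer upstream edge lay at a median of 276 bp before the start in D209N and 272 bp in Flag at day 7, and 196 bp in D209N and 236 bp in Flag at day 3. The downstream edge lay at 514 bp after the start in D209N and 520 bp in Flag at day 7, and 406 bp in D209N and 448 bp in Flag at day 3. Within regions, the D209N edges of day 3 were closer to the start than those of Flag by a median of 22 bp upstream and 30 bp downstream (median differences of -22 and -30 bp). Both edges were closer in D209N at 42.8% of these regions and both farther at 9.14%. At day 7 the median differences between D209N and Flag were 1 bp upstream and -1 bp downstream. From day 3 to day 7 the edges moved out by medians of 55 bp upstream and 92 bp downstream in D209N, and of 21 bp and 49 bp in Flag.

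**Figure D2:**
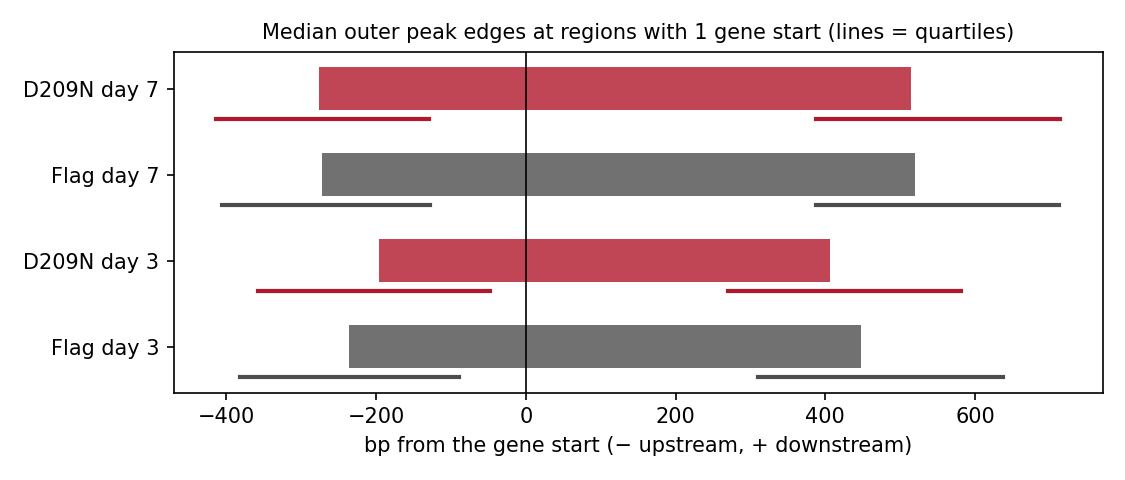
Outer edges of the peaks in bp from the gene start, negative upstream, at the 5448 regions with 1 gene start and no other gene end, in each of the 4 lists. Bars run between the median upstream and the median downstream edge, and thin lines join the quartiles of each edge. The D209N bar of day 3 is the shortest on both sides, at 196 bp upstream and 406 bp downstream, and the bars of day 7 are nearly equal.

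Centres of the regions lay slightly inside the genes. Over 9157 pairs of a region and a gene start of known strand, the centre lay at a median of 89.5 bp downstream of the start (quartiles -47.5 and 232), and on the downstream side in 67.1% of pairs (interval 66.1 to 68.0). The start itself lay inside the region in 90.3% of pairs. Around 3′ ends there was no such peak: only 15.8% of 891 pairs were centred within 250 bp of the 3′ end, against 70.4% around starts.

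**Figure D3:**
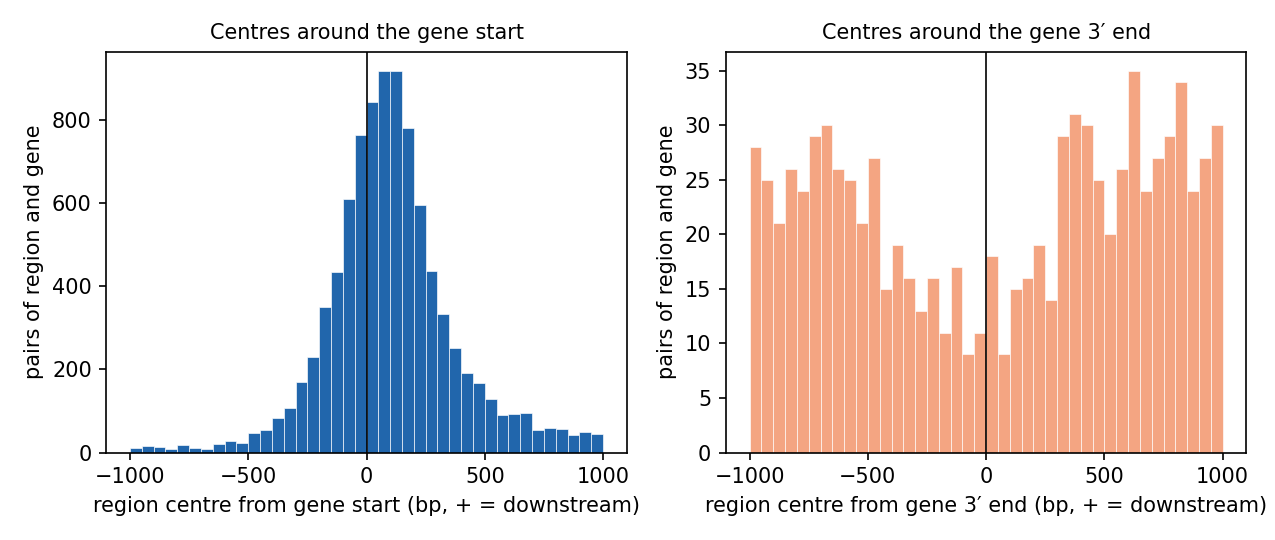
Number of pairs of a region and a gene by the distance of the region's centre from the gene start (left) and from the gene 3′ end (right), in bins of 50 bp, positive downstream. The left and right vertical scales differ. Centres pile up just downstream of starts (median 89.5 bp) and spread over the whole range around 3′ ends, where 15.8% lay within 250 bp.

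A gene start of known strand lay within 1 kb at 7711 regions (76.4%) and a 3′ end at 850 (8.42%). At 1998 regions every nearby gene lacked a strand in the sources used. A protein-coding gene was at 8910 regions (88.2%), and 2 genes shared a region at 2441. Starts on both strands were found at 1384 regions. The starts of 839 of these stood head to head, with a median of 100 bp between them, and 739 joined protein-coding genes on both strands. These bidirectional regions were wider than those with 1 start alone, with median widths of 984 and 891 bp when all lists were joined. At day 3 they were at least 1.5 times narrower in D209N at 9.68%, against 14.8% of regions with 1 start alone. The regions with 3′ ends only, 331 in number, had a median joined width of 668 bp.

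Among 21887 protein-coding genes, 9927 (45.4%) had such a region at an end. A further 804 had a region of 1500 bp or more instead, 2560 had a region found in 1 to 3 lists, and 8596 had none. Most genes, 9564, had 1 region, 359 had 2 and 4 had 3 or more. Of the 17492 coding genes of known strand, 7788 (44.5%) had the region at the start and 603 (3.45%) at the 3′ end. The share was 14.9% of 12727 lncRNA genes, 7.98% of 1228 miRNA genes, 4.1% of 1340 snoRNA genes and 1.4% of 9944 pseudogenes. By chromosome, the share of coding genes ran between 36.7% on chromosome 7 and 53.3% on chromosome 8 among autosomes, and was 30.4% on X and 0.781% on Y.

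Lists of shared cell machinery had high shares, each set beside the 45.4% of all coding genes. The chaperonin and prefoldin genes, whose products fold newly made actin and tubulin, had a region at 14 of 14. For respiratory complex I, the first enzyme of the electron transport chain, the count was 44 of 46 (95.7%), for aminoacyl-tRNA synthetases, which charge tRNAs, 19 of 20, for the spliceosome 35 of 38 (92.1%) and for cytosolic ribosomal proteins 73 of 81 (90.1%). Mediator had 25 of 28, mitochondrial ribosomal proteins 68 of 78, DNA replication 27 of 31, RNA polymerase subunits 24 of 28, proteasome subunits 40 of 48 and translation initiation factors 41 of 52. Of the 8 ribosomal protein genes without one, Rpl7 had a broader region, Rpl8 a region in 1 to 3 lists only, and Rpl10l, Rpl17, Rpl32l, Rpl39l, Rps2 and Rps27l none. Regions at either gene end were counted in these shares, for example those of Rpl3l and Rpl4, which lay past the 3′ end.

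Values within these lists varied from gene to gene. Ndufa1 of complex I had 984 bp in D209N and 920 bp in Flag at day 7, and 395 bp in D209N and 421 bp in Flag at day 3. Ndufa10 had 984 bp in D209N and 931 bp in Flag at day 7, and 709 bp in D209N and 850 bp in Flag at day 3. Both complex I genes were wider in D209N at day 7 and narrower at day 3. The mitochondrial ribosomal gene Mrpl1 had 804 bp in D209N and 833 bp in Flag at day 7, and 796 bp in D209N and 847 bp in Flag at day 3. Mrpl10 had 512 bp in D209N and 661 bp in Flag at day 7, and 228 bp in D209N and 429 bp in Flag at day 3. Both were narrower in D209N on both days. Polr1a, the large subunit of RNA polymerase I, had 951 bp in D209N and 1061 bp in Flag at day 7, and 739 bp in D209N and 1387 bp in Flag at day 3. Polr1b had 420 bp in D209N and 657 bp in Flag at day 7, and 367 bp in D209N and 410 bp in Flag at day 3. Both polymerase genes were narrower in D209N on both days. Mcm2, a subunit of the replicative helicase, had 392 bp in D209N and 389 bp in Flag at day 7, and 281 bp in D209N and 369 bp in Flag at day 3. Mcm3 had 664 bp in D209N and 764 bp in Flag at day 7, and 599 bp in D209N and 565 bp in Flag at day 3. In both helicase genes the difference between the arms differed in sign between the days. Median ratios of D209N to Flag at day 3 ran between 0.8695 for the RNA polymerase subunits and 1.001 for chaperonin and prefoldin, and the ratio for complex I was 0.9937, beside 0.908 over all regions at gene ends.

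**Figure D4:**
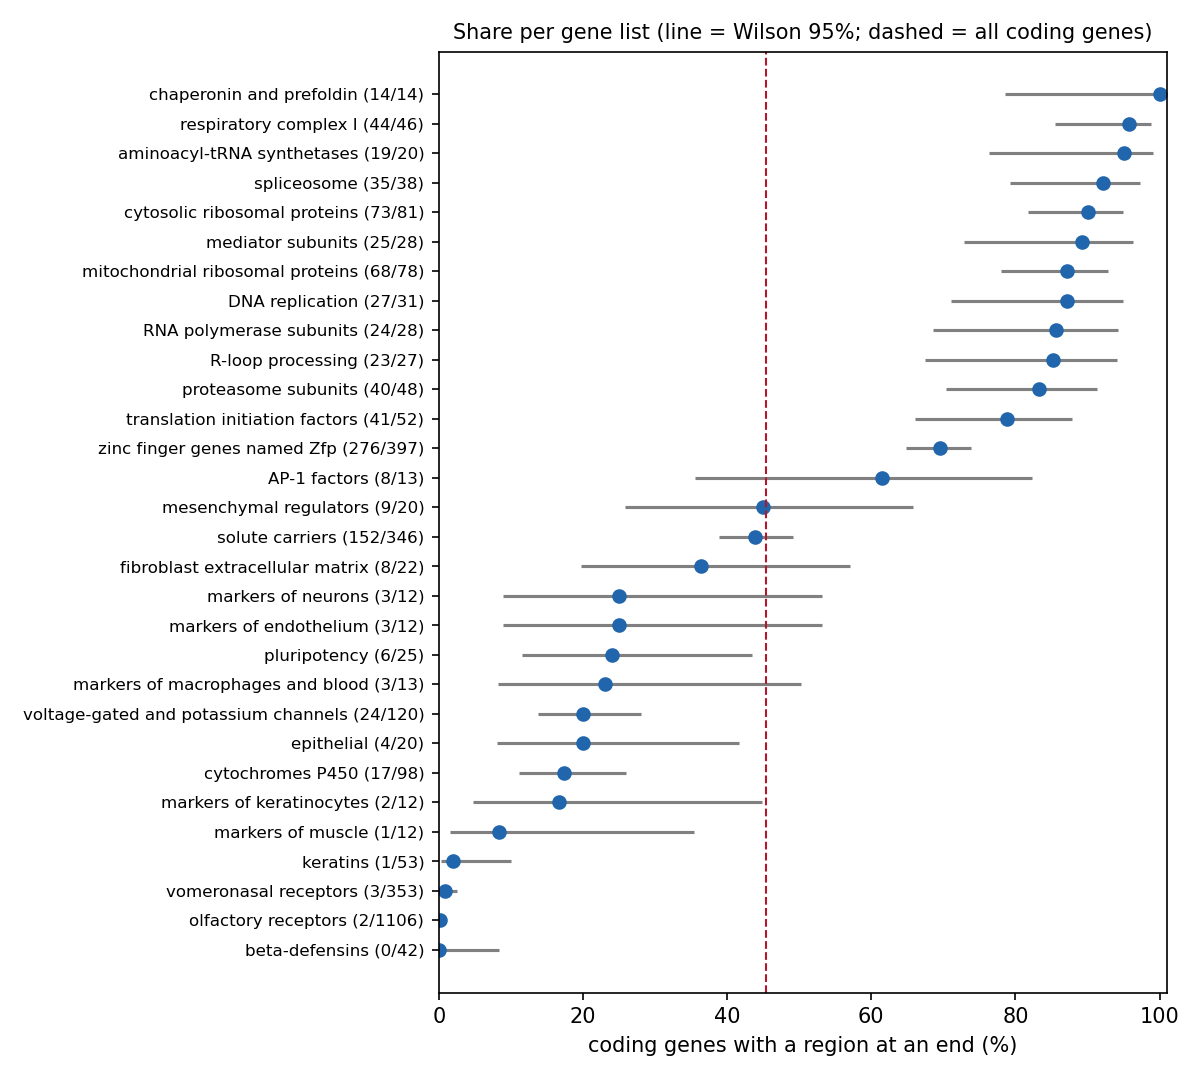
Share of the protein-coding genes of each list with a region at an end (%), with counts in the labels. Points are shares, lines are Wilson 95% intervals for counting error, and the dashed line is the 45.4% of all coding genes. The 11 lists of shared cell machinery lie between 78.8 and 100% and the receptor, keratin and beta-defensin lists between 0 and 1.89%.

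Families used by few cell types stood at the other end. The odorant receptors had 2 of 1106 genes (0.181%), vomeronasal receptors 3 of 353 (0.85%), keratins 1 of 53 (1.89%) and beta-defensins 0 of 42, which allows a share of up to 8.38% by the Wilson interval. The odorant receptor genes were Olfr1033 and Olfr94, the keratin was Krt80, and the vomeronasal receptor genes were Vmn1r193, Vmn1r4 and Vmn2r29. Olfr1033 had 595 bp in D209N and 497 bp in Flag at day 7, and 639 bp in D209N and 555 bp in Flag at day 3. Olfr94 had 471 bp in D209N and 605 bp in Flag at day 7, and 175 bp in D209N and 381 bp in Flag at day 3. Cytochromes P450, which oxidise steroids and drugs, had 17 of 98 (17.3%), and voltage-gated and potassium channels 24 of 120. The channel regions were narrow in D209N at day 3, with a median of 432.5 bp against 574.5 bp in Flag, and 10 of 24 were at least 1.5 times narrower in D209N, beside 14.2% of all regions at gene ends. Solute carriers, a mixed family of membrane transporters, had 152 of 346 (43.9%), near the share of all coding genes. The zinc finger genes named Zfp had 276 of 397 (69.5%, interval 64.8 to 73.8).

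Genes that process R-loops had a region at 23 of 27. They include Rnaseh1 itself and the 3 subunits of RNase H2, which also digests hybrids. Over the 23 regions of this list the median ratio of D209N to Flag was 0.9776 at day 7 and 0.9402 at day 3. Over all regions at gene ends it was 1.004 and 0.908. At day 3, 2 of the 23 were at least 1.5 times narrower in D209N and 1 wider, beside 14.2% and 2.34% of all regions at gene ends. Rnaseh1 had 694 bp in D209N and 920 bp in Flag at day 7, and 470 bp in D209N and 653 bp in Flag at day 3. The values of D209N were lower on both days, as they were in the RNase H2 genes that follow. Rnaseh2a, the catalytic subunit of RNase H2, had 633 bp in D209N and 729 bp in Flag at day 7, and 439 bp in D209N and 469 bp in Flag at day 3. Rnaseh2b had 886 bp in D209N and 917 bp in Flag at day 7, and 784 bp in D209N and 855 bp in Flag at day 3. Rnaseh2c had 666 bp in D209N and 682 bp in Flag at day 7, and 300 bp in D209N and 427 bp in Flag at day 3. Dhx9, a helicase that unwinds hybrids, had 1017 bp in D209N and 1004 bp in Flag at day 7, and 335 bp in D209N and 1032 bp in Flag at day 3, so its D209N list of day 3 stood alone. For Ddx5, another helicase and the target of the study's CLIP-seq, the region lay past the 3′ end and not at the start (chr11:106779087-106780086). This region had 977 bp in D209N and 961 bp in Flag at day 7, and 973 bp in D209N and 958 bp in Flag at day 3. Its 4 values were nearly equal. Dhx9 and Ddx5 were named from the list after their values had been seen.

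The reprogramming factor genes have copies on the vectors, and the peak positions cannot tell vector reads from reads of the gene itself. Sox2 had 822 bp in D209N and 768 bp in Flag at day 7, and 592 bp in D209N and 698 bp in Flag at day 3, in a region that lay inside the annotated gene (chr3:34650469-34651290). Klf4 had 983 bp in D209N and 905 bp in Flag at day 7, and 594 bp in D209N and 822 bp in Flag at day 3. Myc had 945 bp in D209N and 988 bp in Flag at day 7, and 493 bp in D209N and 504 bp in Flag at day 3. Sox2, Klf4 and Myc were wider at day 7 in each arm. Pou5f1, which encodes Oct4, had no region in any list at either end.

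Few genes of the pluripotency list had a region at an end in all 4 lists, 6 of 25 (24.0%), beside 45.4% of all coding genes. They were Sox2, Klf2, Klf4, Klf5, Tfcp2l1 and Tbx3. Klf2, a factor of naive pluripotent cells, had 1142 bp in D209N and 1137 bp in Flag at day 7, and 555 bp in D209N and 748 bp in Flag at day 3. Klf5 had 1085 bp in D209N and 1010 bp in Flag at day 7, and 889 bp in D209N and 884 bp in Flag at day 3. Both were wider at day 7 in each arm. Nanog, Esrrb, Dppa3 and Lin28a had no region at either end in any list, and Zfp42, Sall4, Utf1 and Fgf4 had one in 1 to 3 lists. Regions centred more than 1 kb from both ends of a gene were not counted. Of the epithelial list, 4 of 20 had one: Epcam, Cldn3, Cldn4 and St14. Epcam, a surface adhesion molecule of epithelial and pluripotent cells, had 739 bp in D209N and 879 bp in Flag at day 7, and 43 bp in D209N and 684 bp in Flag at day 3. The D209N value of day 3 was a sliver of a peak, and the other 3 lists were alike in size. Cldn3 had 872 bp in D209N and 888 bp in Flag at day 7, and 651 bp in D209N and 656 bp in Flag at day 3. Cdh1 had a region at an end in 1 to 3 lists only.

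Fibroblast matrix genes and mesenchymal regulators stood for the starting cells. The matrix genes had a region at 8 of 22 (36.4%, interval 19.7 to 57.0). The regulators had one at 9 of 20 (45.0%, interval 25.8 to 65.8), beside 45.4% of all coding genes. A region in 1 to 3 lists only was found at a further 8 matrix genes and 4 regulators. Col1a1, a chain of type I collagen, had 769 bp in D209N and 607 bp in Flag at day 7, and 345 bp in D209N and 682 bp in Flag at day 3. Col1a2, the other chain, had 1399 bp in D209N and 766 bp in Flag at day 7, and 467 bp in D209N and 699 bp in Flag at day 3. The type I collagen genes were thus narrower in D209N at day 3 and wider in D209N at day 7. Col5a2, a chain of type V collagen, had 1256 bp in D209N and 866 bp in Flag at day 7, and 522 bp in D209N and 404 bp in Flag at day 3. Col6a2 had 789 bp in D209N and 374 bp in Flag at day 7, and 371 bp in D209N and 287 bp in Flag at day 3, and both were wider in D209N on both days. The other matrix genes with a region were mixed at day 7: Thbs2 was wider in D209N, and Fn1, Dcn and Timp2 were narrower. Over the 8 matrix regions the median ratio of D209N to Flag was 1.211 at day 7 and 0.8953 at day 3. Over all regions at gene ends it was 1.004 and 0.908. At day 7, 2 of the 8 were at least 1.5 times wider in D209N. The matrix genes Fbn1 and Thbs1 had broader regions. The first 4 mesenchymal regulators with a region, Snai1, Snai2, Zeb1 and Zeb2, all encode repressors of epithelial genes. Snai1 had 663 bp in D209N and 640 bp in Flag at day 7, and 509 bp in D209N and 474 bp in Flag at day 3. Snai2 had 809 bp in D209N and 966 bp in Flag at day 7, and 826 bp in D209N and 974 bp in Flag at day 3. These neighbours in the list lay on opposite sides, Snai1 wider and Snai2 narrower in D209N on both days. Zeb1 had 1483 bp in D209N and 1445 bp in Flag at day 7, and 585 bp in D209N and 735 bp in Flag at day 3. Zeb2 had 641 bp in D209N and 455 bp in Flag at day 7, and 506 bp in D209N and 233 bp in Flag at day 3. Zeb2 was wider in D209N on both days, and Zeb1 at day 7 only. Over the 9 regions of the list the median ratio of D209N to Flag was 1.026 at day 7 and 0.8743 at day 3. AP-1 genes, which encode FOS and JUN factors and relatives, had 8 of 13. Fos had 863 bp in D209N and 1030 bp in Flag at day 7, and 741 bp in D209N and 539 bp in Flag at day 3. Fosb had 519 bp in D209N and 496 bp in Flag at day 7, and 472 bp in D209N and 474 bp in Flag at day 3. Fosl1 had 700 bp in D209N and 688 bp in Flag at day 7, and 414 bp in D209N and 358 bp in Flag at day 3. Jun had a broader region.

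For markers of other cell types that the cultures could hold, lists of 12 or 13 genes were set beside the 45.4% of all coding genes. Neuron markers had 3 of 12 genes (Snap25, Syt1 and Tubb3) and macrophage and blood markers 3 of 13 (Cd68, Cd14 and Spi1). Endothelial markers had 3 of 12 (Kdr, Tek and Erg), keratinocyte markers 2 of 12 (Lor and Sprr1a) and muscle markers 1 of 12 (Ckm). The Wilson intervals of the neuron, the macrophage and blood, and the endothelial shares included 45.4%. Those of the keratinocyte and muscle shares lay below it. Such short lists give wide intervals, and which cells the cultures held was not tested. The Ckm region lay at the 3′ end and the Lor region nearer the 3′ end than the start. Spi1 had no strand in the sources used. Among the rest, a region in 1 to 3 lists was found at 4 neuron markers (Stmn2, Nefl, Nefm and Slc17a7), 4 muscle markers (Myod1, Acta1, Actc1 and Ryr1), 2 endothelial markers (Flt1 and Cldn5), 1 keratinocyte marker (Krt1) and 0 macrophage and blood markers. The others, among them Ptprc, Csf1r, Pecam1, Cdh5, Krt5, Krt14, Myog and Rbfox3, had no region at either end in any list. Snap25 had 1076 bp in D209N and 782 bp in Flag at day 7, and 106 bp in D209N and 312 bp in Flag at day 3. Syt1 had 1432 bp in D209N and 1383 bp in Flag at day 7, and 1321 bp in D209N and 1341 bp in Flag at day 3. An open region at an end does not show that the gene was expressed, and expression was not analysed here.

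Transfer RNA genes lay at 120 of the regions (1.19%), most of which had no protein-coding neighbour. Of 408 tRNA genes, 163 had such a region, and 53 more had a region of 1500 bp or more. The 120 regions concerned held no protein-coding gene end in 94 cases and 2 or more tRNA genes in 32. Their median width was 841.5 bp in D209N and 763.5 bp in Flag at day 7, and 721.5 bp in D209N and 809 bp in Flag at day 3. In Flag the median ratio of day 7 to day 3 was 0.9686, below 1, whereas over all regions at gene ends it was 1.123. In D209N the ratio was 1.081, beside 1.266. By amino acid, 17 of 25 leucine tRNA genes had a region, the highest share, and 2 of 56 cysteine tRNA genes did, the lowest. Copies of tRNA genes share much of their sequence, and the handling of reads with several matches is not given in the sources used here.

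Other small RNA genes were named after their values had been seen. Terc, the RNA template of telomerase, had 667 bp in D209N and 683 bp in Flag at day 7, and 617 bp in D209N and 408 bp in Flag at day 3. Rpph1, the RNA of RNase P, shared its region with Parp2 and had 715 bp in D209N and 697 bp in Flag at day 7, and 624 bp in D209N and 585 bp in Flag at day 3. Rmrp, the RNA of RNase MRP, had 1133 bp in D209N and 1151 bp in Flag at day 7, and 851 bp in D209N and 988 bp in Flag at day 3. Gas5, a host gene of small nucleolar RNAs, shared its region with the start of Zbtb37 and was among the regions with the most genes, 4. The region with the most gene ends held the shared 3′ end of the gamma protocadherin cluster, with 24 genes, where the width was 1082 bp in D209N and 1367 bp in Flag at day 7, and 403 bp in D209N and 1173 bp in Flag at day 3.

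The narrowest region belonged to Hes1, a repressor in Notch signalling, at 247 bp joined, with 202 bp in D209N and 228 bp in Flag at day 7, and 228 bp in D209N and 241 bp in Flag at day 3. Wls, which carries Wnt proteins to the cell surface, had 271 bp in each list of day 7, and 269 bp in D209N and 271 bp in Flag at day 3, near its 3′ end. Its edges varied by 2 bp in all, the least of any region, where the edge range is the summed spread of the left and the right edge over the 4 lists. Cox14, an assembly factor of cytochrome oxidase, varied by 6 bp and Chchd2 by 12 bp, against a median of 301 bp over all regions at gene ends. Among the broadest, Plpp3 had 1458 bp in D209N and 1333 bp in Flag at day 7, and 1378 bp in D209N and 1442 bp in Flag at day 3.

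Some regions at the extremes of the width ratios came with very short peaks. Plppr1, of a family of membrane proteins of neurons, had 781 bp in D209N and 806 bp in Flag at day 7, and 2 bp in D209N and 756 bp in Flag at day 3. St8sia2, which adds polysialic acid to cell surface proteins, had 1096 bp in D209N and 931 bp in Flag at day 7, and 33 bp in D209N and 607 bp in Flag at day 3. In the other direction Plekhm2, a kinesin adaptor on lysosomes, had 1341 bp in D209N and 1209 bp in Flag at day 7, and 955 bp in D209N and 296 bp in Flag at day 3. Zfp968 had 333 bp in D209N and 275 bp in Flag at day 7, and 281 bp in D209N and 25 bp in Flag at day 3. At day 7, Mapk11, a p38 kinase, had 851 bp in D209N and 56 bp in Flag, after 580 bp in D209N and 321 bp in Flag at day 3. Btg1b had 112 bp in D209N and 458 bp in Flag at day 7, after 356 bp in D209N and 546 bp in Flag at day 3. Unc93b1, which escorts Toll-like receptors to endosomes, had 1014 bp in D209N and 902 bp in Flag at day 7, against 147 bp in both lists of day 3. Sema3a, an axon guidance protein, was narrower at day 7 in both arms, with 277 bp in D209N and 159 bp in Flag, after 438 bp in D209N and 664 bp in Flag at day 3. Widths under 100 bp were found at 2 regions in D209N and 3 in Flag at day 7, and at 42 in D209N and 3 in Flag at day 3.

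The promoter sequences of the genes were not used to choose the regions. For 17492 coding genes with a RefSeq promoter, the CpG ratio, observed over expected from the base composition, had a median of 0.789 at the 7788 genes with a region at the start, 0.836 at 666 genes with a broader region, 0.614 at 1780 genes with a region in 1 to 3 lists and 0.199 at 7258 genes without one. A ratio of at least 0.6 was reached by 78.0% (interval 77.0 to 78.9) of the first, 84.8% of the broader, 51.5% of those in 1 to 3 lists and 12.6% (interval 11.8 to 13.4) of those without a region. Median GC content was 61.3% at genes with a region and 47.7% at genes without one.

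Several motifs were in a larger share of promoters with a region under 1500 bp than of those without one, and each share is over these promoters with both strands searched. The ETS letters CCGGAAG, as in Rpl11, were in 20.3% of promoters with a region and 4.02% of those without one, against 11.9% of all promoters. The NRF1 letters, as in Rpl37a, were in 4.46% with a region and 0.579% without one, against 2.41% of all. The YY1 letters, as in Rpl13a, were in 3.48% with a region and 0.386% without one, against 1.92% of all. The cAMP response element of Rpl13 was in 3.92% with a region and 0.882% without one, against 2.33% of all. The GC box of Rpl10 was in 68.1% with a region and 17.6% without one, against 46.3% of all, and these letters are themselves GC-rich. The Rpl12 element was in 1.66% with a region and 0.386% without one, against 1.03% of all, and the ZNF143 letters of Eif2ak3 were in 0.912% with a region and 0.193% without one, against 0.543% of all. The E-box CACGTG was in 10.7% with a region and 4.64% without one, against 7.91% of all.

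Others were in a smaller or a nearly equal share. The TATA letters, as in Rpl36a, were in 6.39% with a region and 22.8% without one, against 13.3% of all, and the AP-1 letters TGANTCA in 4.02% with a region and 10.5% without one, against 7.03% of all. The TEAD letters GGAATG were in 11.3% with a region and 16.0% without one, against 13.5% of all. The octamer ATGCAAAT, bound by Oct4 and other POU factors, was in 1.36% with a region and 2.01% without one, against 1.72% of all. The CCAAT letters were in 41.0% with a region and 39.1% without one, against 39.2% of all, which is nearly the same. Base composition differed between these promoters as well, and its part in the motif shares was not tested. Against the broader regions, the narrower ones held ETS letters more often (20.3% and 14.4%, intervals 19.4 to 21.2 and 12.0 to 17.3) and the GC box less often (68.1% and 76.1%, intervals 67.0 to 69.1 and 72.7 to 79.2). Matches also differed in place: the YY1 letters were centred at a median of 17.5 bases after the start, ETS letters at -27.5, NRF1 at -44.5 and CCAAT at -81.5.

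**Figure D5:**
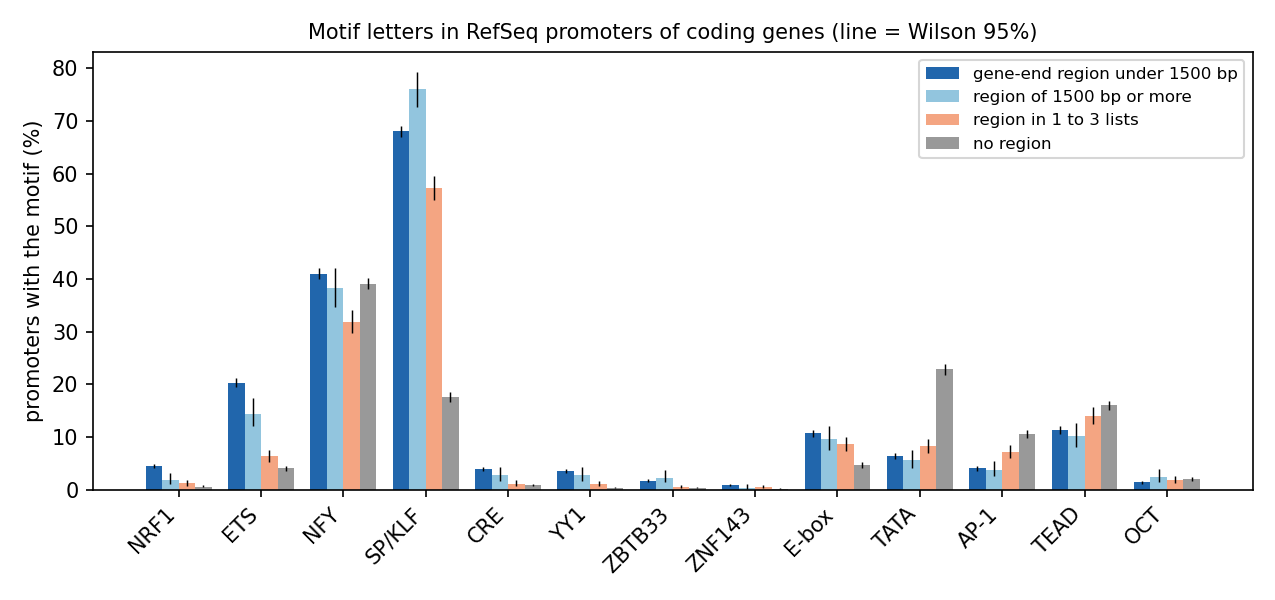
Share of RefSeq promoters of coding genes with at least 1 match to each motif on either strand (%), by what the 4 peak lists held at the gene start. Bars are shares and lines are Wilson 95% intervals for counting error. ETS letters were in 20.3% of promoters with a region under 1500 bp and 4.02% of those with none, and TATA letters in 6.39% and 22.8% of the same classes.

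Joined width was larger at promoters with a higher CpG ratio. When 1 promoter per region was sorted into 4 equal classes by the CpG ratio, the median joined width was 839 bp in the lowest class, then 896 and 935 bp, and 998 bp in the highest. At day 3 a width at least 1.5 times smaller in D209N was seen at 16.9% of regions in the lowest class, then 11.9%, 12.1% and 11.6%, with median ratios of D209N to Flag of 0.8881, 0.9175, 0.918 and 0.9111. Classes of GC skew in the 50 bases after the start, a property of R-loop forming sequence, gave 13.8%, 13.8%, 12.5% and 12.3% from the lowest to the highest skew, with median ratios of 0.9055, 0.9092, 0.917 and 0.9077. The regions with ETS letters were narrower in D209N by this fold at 10.0%, against 13.9% of those without them, and those with the Rpl12 element at 5.66%, against 13.2%. These splits were many and none was tested.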

How the data were processed

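Of 8 ATAC-seq libraries, 2 for each of 4 groups, the authors deposited intervals only, as 1 list per group. Each line gives a position and a name, without a score or a read count. CASAVA, Bowtie2 (version 2.3.2) and the builds GRCm38.p5 and mm10 are named in the submitters' processing notes. Which caller and threshold gave the peaks, whether insertions were shifted and how replicates were combined is not given in these sources. A wider peak can come from more signal, more reads or another threshold, and a list without depth cannot tell these apart. Lists were matched to groups by the arm and day in their peak names, which all carry rep1. Between 146 names (Flag, day 3) and 180 names (Flag, day 7) per list stood on 2 or more intervals. Intervals under 50 bp numbered between 116 (Flag, day 3) and 174 (D209N, day 7) per list. A listed interval can thus be part of a named peak, and how such parts arose was not tested. Very small widths are to be read with this limit. The 3 mitochondrial intervals in each list were not used.

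Regions were built with pandas 2.3.3 and numpy 2.4.6 (Python 3.11.15), scipy 1.17.1 gave Wilson 95% intervals, and the interval steps were tested on simulated data. Width was the number of bases under peaks in the region. Gene ends came from the RefSeq table of GRCm38.p6, and strand and promoters from RefSeq promoter sequences, matched by gene identifier for 17492 of 21887 coding genes. The members, the 31 gene lists and the 13 motifs were chosen with earlier results of these data known. Named genes were taken from the first 2 to 4 with a region in each list, the 3 highest and 3 lowest ratios of each contrast at coding genes, the 5 narrowest, broadest and steadiest regions and the 5 with the most gene ends, and not all that this rule names are given. A gene outside that rule is said to be chosen after its values were seen, or is named without values. The RNA-seq, R-loop and CLIP-seq samples were not used here.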

Additional observations from a re-analysis of the deposited data

Results flagged for a closer look

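At 54 of 10099 regions at gene ends, against 231 of all 21785 regions present in every list, the width differed by at least 1.5 times between the days in opposite directions in D209N and Flag. With 1 list per group the difference between the arms was not tested. Among the named genes, Vit, which encodes the matrix protein vitrin, had a ratio of day 7 to day 3 of 216 in D209N and 0.605 in Flag, where the D209N width was 431 bp at day 7 and 2 bp at day 3 and the Flag width 405 bp at day 7 and 669 bp at day 3. Oxt, the oxytocin precursor, had a ratio of 1.86 in D209N and 0.136 in Flag, in a region centred 926 bp from its 3′ end. Galnt17, of a family that starts mucin-type glycosylation, had 1.87 in D209N and 0.28 in Flag. Dsg2, a desmosomal cadherin, went the other way, with 0.384 in D209N and 1.96 in Flag. The Dsg2 region was centred 922 bp from an end of the gene, which had no strand in the sources used.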

How the results depend on the processing

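No paired analysis was possible because each group had 1 peak list and no column for either replicate. Of the recomputed values, 63 kept their direction and size (within 0.05 on the log2 scale for a median ratio). Another 33 moved in size and 3 reversed. With widths divided by the list medians, 3 median ratios reversed: 1.04 for D209N to Flag at day 3, 0.9879 for D209N to Flag at day 7 and 0.9785 for day 7 to day 3 in D209N, and the ratio in Flag was 1.01. By that division the regions past the fold at day 3 were 853 narrower and 526 wider in D209N, and those narrower and wider at day 7 were 398 and 1129 in D209N, and 327 and 838 in Flag. At least 50% of the length was under peaks in each list at 8236 regions. Among these, D209N was narrower at 463 and wider at 74 at day 3, and narrower at 47 and wider at 84 at day 7. For day 7 to day 3 these counts were 34 narrower and 1353 wider in D209N, with a median ratio of 1.21, and 68 narrower and 574 wider in Flag. At a fold of 2 instead, D209N was narrower at 488 and wider at 54 at day 3, and narrower at 36 and wider at 40 at day 7. For day 7 to day 3 these counts were 31 narrower and 1033 wider in D209N, and 49 narrower and 373 wider in Flag. Shares over all regions present in every list are not given for these settings. The counts therefore do not show whether gene ends differed from the whole set. A width limit of 1000 bp left 6571 regions and put 73.8% of promoters at or above the CpG ratio, and requiring the start inside the region put 79.6% there. Under these 2 settings 6 motif shares moved by more than counting error, 4 higher and 2 lower. Leaving out each list in turn gave between 10300 and 11371 regions. A stricter fold, a smaller limit or a smaller set gives fewer regions by construction, and the cause of the other differences was not tested. Depth is unknown, so nothing could be set against it.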
